A study of Mus musculus with 8 samples.

Results

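The genes described here are 39 genes of the p53 pathway and of cell cycle arrest, taken by symbol from a list out of 55335 gene identifiers in the deposited table. No threshold on a value chose them, but the list was drawn up with earlier results of these data known. All 39 were found by symbol in GRCm38. They are p53 itself and its 2 main inhibitors, the 7 CDK inhibitor genes, 11 arrest genes, 12 apoptosis genes, and 6 genes of DNA repair and metabolism. RNA was sequenced from MC3T3-E1 cells, an established mouse calvarial pre-osteoblast line, cultured for 3 days with 1 of 2 scaffolds, TABS (named a Trio-Active bone scaffold in the labels, 4 libraries) or HA (hydroxyapatite doped with magnesium, 4 libraries). Every library came from cells on a scaffold, so a difference is between scaffolds and has no scaffold-free reference, and the sources used here do not say what TABS consists of. The labels do not say that replicates were separate cultures. The spread behind each p-value is therefore that of the 4 libraries of a group and may be technical.

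p53, encoded by Trp53, is a transcription factor that is kept scarce by the ubiquitin ligase Mdm2 and held in check by its relative Mdm4. DNA damage and other stresses mainly stabilise the protein, so the level of Trp53 mRNA says little about its activity, and the mRNA of its targets is the usual readout. Its targets stop the cell cycle (Cdkn1a), trigger apoptosis (Bax, Bbc3) or repair DNA (Xpc, Ddb2), and Mdm2 is itself a target, which closes a feedback loop. The CDK inhibitors fall into the Cip/Kip family (Cdkn1a, Cdkn1b, Cdkn1c), which binds cyclin-CDK complexes, and the INK4 family (Cdkn2a, Cdkn2b, Cdkn2c, Cdkn2d), which binds Cdk4 and Cdk6. In the osteoblast lineage, arrest of division accompanies differentiation.

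p53 binds a decamer, usually present as a pair. Promoter windows from 250 bases before to 50 bases after a gene start (RefSeq, GRCm38.p6) were found for 30 of the 39 genes, 39 windows in all, and searched on both strands for the p53 decamer consensus, which is its own reverse complement. A match without mismatch lay in 12 of these 39 windows (30.8%), from 11 genes, against 8.36% of the 32851 windows of all genes. A pair with at most 3 mismatches and at most 1 base between its decamers lay in 10 windows (25.6%, 9 genes) against 2.82%. Many of the genes were listed as known p53 targets, so these larger shares are no independent result, and they were not tested. Windows of a gene can overlap, and the same Aen decamer and pair were counted in more than 1 window. The 3 pairs with the fewest mismatches and the single decamer of Mdm2 are shown, since Cdkn1a, Ccng1, Bax and Mdm2 are the targets through which p53 activity is commonly read. Capitals mark the matched decamers.
Cdkn1a, chr17:29090924-29090951, + strand, 51 bases before the start, 1 mismatch: tcagGAACATGTCTTGACATGTTCagcc
Ccng1, chr11:40755458-40755485, - strand, 195 bases before the start, 1 mismatch: ggccAGACCTGCCCGGGCAAGCCTtggc
Bax, chr7:45467075-45467103, - strand, 201 bases before the start, 2 mismatches: tcccAGGCAAGCTTtGAACTTGCGGcaat
Mdm2, chr10:117710925-117710954, - strand, 186 bases before the start, single decamer: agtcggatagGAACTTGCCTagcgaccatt
Of the 11 genes with a decamer without mismatch, all tested, 7 had a difference above 0 and 0 passed the test described below. Of the 17 tested genes with a window and no such decamer, 7 had a difference above 0 and 1 passed. Over all 11280 tested genes, 5860 were above 0 and 7.38% passed. Groups of 11 and 17 genes are too small to be set apart from these shares. Among those 17, Cdkn1b, Tigar and Bbc3 held a pair with mismatches. A match describes letters only, and p53 sites can lie outside such windows.

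Levels are in FPKM (fragments per kilobase of transcript, relative to the library's size), a scale per length on which genes can be compared. The FPKM values of a library summed to between 304893 and 307263 in TABS and to between 312629 and 317439 in HA. Every TABS total thus lay below every HA total, and rescaling to a common total (TPM) moves values on TABS up relative to HA. Read totals were not in the table, and only 19.9% to 27.1% of low values in single-exon genes fell within 0.02 of a whole multiple of a common step, so reads were not recovered and the depth is unknown. All 6 osteoblast markers passed the filter of 1 FPKM in at least 4 libraries. Their summed level was 912 to 969 FPKM in TABS and 1080 to 1410 in HA, most of it Col1a1. In the test described below, 4 of the 6 (Sp7, Col1a1, Alpl, Ibsp) fell on TABS at an adjusted p under 0.05. Runx2 and Bglap did not pass, and 2.90% of all tested genes fell. Alpl was under 1 FPKM in all TABS libraries and entered the test only through its level in HA. The part of these markers in the differences between p53 pathway genes was not tested, and in such bulk RNA fewer cells of a type and less RNA per cell cannot be told apart. Transcripts of the mitochondrial genome made up 10.2% to 12.2% of FPKM in TABS and 12.1% to 14.5% in HA. All 5 macrophage markers and all 4 endothelial markers stayed under 1 FPKM in every library, with summed levels of 0.224 to 0.499 and 0.204 to 0.346 FPKM in TABS and 0.260 to 0.349 and 0.173 to 0.228 in HA, and with Itgam and Kdr at 0. Of 4 adipocyte and 4 chondrocyte markers, all but Fabp4, which did not pass the test, and Col2a1, which rose on TABS, were under 1 FPKM throughout. The summed level of the chondrocyte markers was 5.69 to 6.42 FPKM in TABS and 4.08 to 5.24 in HA, and their part in the results was not tested.

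Most of the 39 genes were expressed on both scaffolds, and 2 passed the test for a difference between them. The activity of p53 itself was not measured. Of the 39 genes, 34 reached 1 FPKM in at least 4 libraries and were tested with limma on log2(FPKM + 1). Xpc, the damage sensor of nucleotide excision repair, rose on TABS and Plk2, a polo-like kinase gene induced by p53, fell. The other 32 did not pass (adjusted p under 0.05 over all 11280 genes tested). These 2 of 34 genes are 5.88%, and 7.38% of all tested genes passed, 4.49% higher and 2.90% lower, so the count is near the background. At an unadjusted p under 0.05 there were 14 of the 34, 7 of them arrest genes. That is a larger share than the 2716 of the 11280 (24.1%). Since the list was drawn up with earlier results of these data known, neither share was tested. The median difference (TABS minus HA) was 0.00 on the log2 scale over the 34 genes, 17 above 0 and 17 below, and 0.01 over all tested genes. For 32 of the 34 genes the 95% interval of the difference lay inside 0.5 on either side of 0, the exceptions being Gadd45a and Cdkn2d. Cdkn2c lay only just inside (upper end 0.497), and this scale understates changes of genes at low FPKM.

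**Figure D1:**
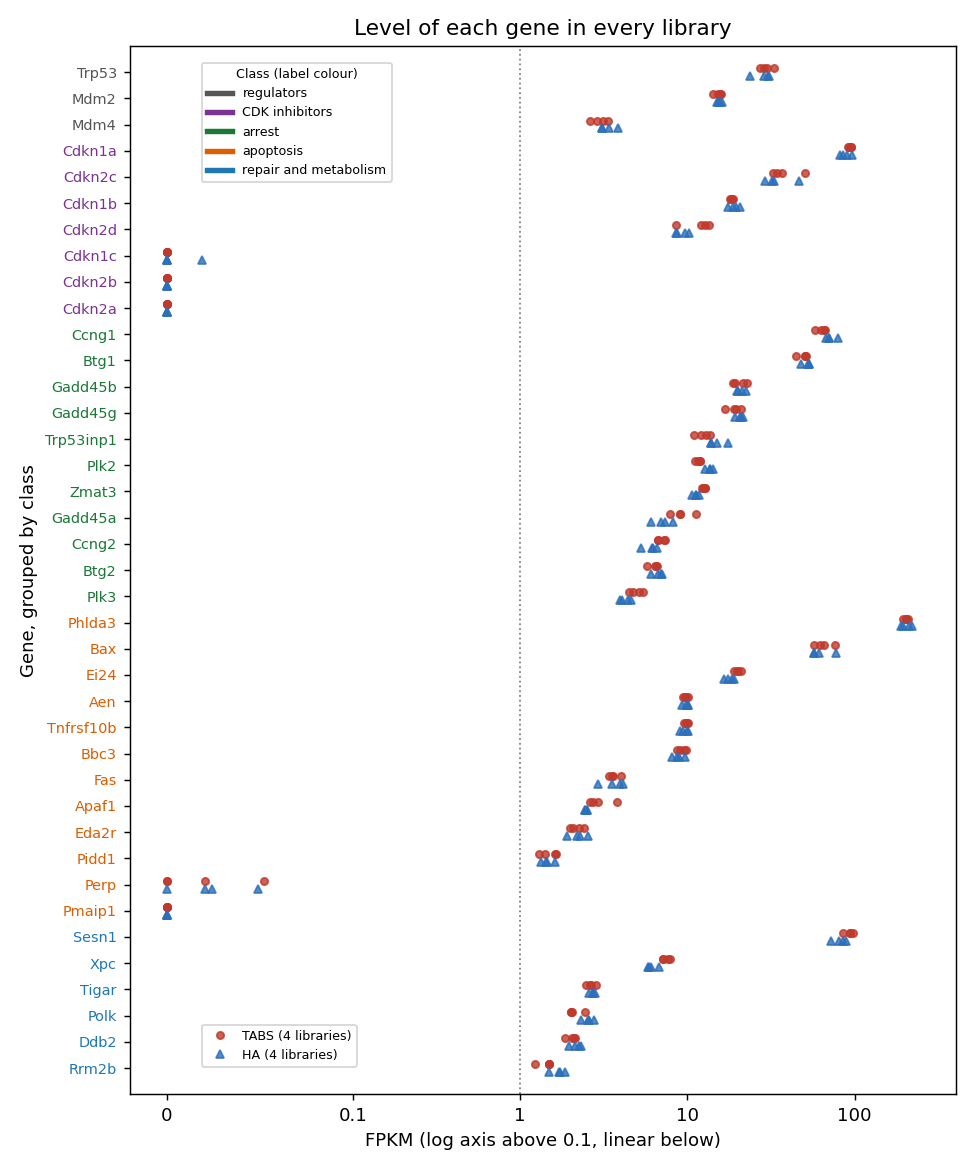
FPKM of each of the 39 genes in the 4 TABS libraries (circles) and the 4 HA libraries (triangles), on an axis that is logarithmic above 0.1 FPKM, with gene names coloured by class. Phlda3, Cdkn1a and Sesn1 stand highest, Cdkn2a, Cdkn2b and Pmaip1 are at 0 in all 8 libraries, and the dotted line marks 1 FPKM.

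Trp53 stood at 30.0, 28.8, 33.1 and 27.3 FPKM in TABS 1 to 4 and at 30.7, 30.2, 28.7 and 23.6 in HA 1 to 4. The groups overlapped, with HA 4 lowest, and the difference of 0.08 ± 0.09 (log2, SE) did not pass (limma adjusted p = 0.655). Mdm2 varied little, at 15.6, 15.9, 14.3 and 15.1 FPKM in TABS and 15.1, 15.2, 15.7 and 16.2 in HA. Its difference was -0.03 (95% interval -0.13 to 0.07). Mdm4 was lower than Mdm2 in every library, at 3.15, 3.33, 2.62 and 2.89 FPKM in TABS and 3.08, 3.09, 3.40 and 3.85 in HA (-0.12, interval -0.29 to 0.05). None of the 3 regulators passed, too few genes to set against the 7.38% of all tested genes that passed.

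Of the 7 CDK inhibitor genes 4 were expressed, and none of these passed the test (median difference 0.10). So few genes cannot be set apart from the 7.38% of all tested genes that passed. Cdkn1a, which encodes p21 and is the best known arrest target of p53, was the most abundant of them and ranked 447th of the 11280 tested genes by mean FPKM. It stood at 94.4, 92.6, 91.0 and 95.01 FPKM in TABS and 96.6, 89.8, 84.7 and 81.6 in HA. The TABS libraries lay close together, HA 1 above all of them and the other HA libraries below, and the difference was 0.08 (interval -0.04 to 0.21, adjusted p = 0.391). Cdkn1b, encoding p27, stood at 18.4, 18.8, 18.3 and 17.9 FPKM in TABS and 17.6, 19.4, 18.6 and 20.7 in HA, with SDs of 0.371 and 1.33 FPKM. The TABS libraries lay inside the HA range, and the interval of the difference ran from -0.17 to 0.06. Cdkn1c, encoding p57, was listed at 0 in every library except HA 4 (0.019 FPKM).

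The INK4 family was split between genes that were expressed and genes that were not listed above 0. Cdkn2c, encoding p18, stood at 32.3, 36.6, 50.2 and 34.3 FPKM in TABS and 29.1, 33.0, 46.3 and 31.9 in HA. Library 3 was the highest in both groups, and the interval of the difference was wide for its level (-0.24 to 0.497). Cdkn2d, encoding p19, stood at 8.53, 12.1, 12.8 and 13.4 FPKM in TABS and 10.2, 9.66, 8.51 and 8.68 in HA. TABS 1 lay among the HA libraries while the other 3 TABS libraries lay above them, and the difference of 0.29 ± 0.12 did not pass (adjusted p = 0.182). Of 20 alternative fits, Cdkn2d passed in 1 only, that without TABS 1, the TABS library that went against the difference (0.43, limma adjusted p = 0.0161). With 1 library left out its adjusted p ran up to 0.357.

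Cdkn2a, the gene of p16 and of the Mdm2 inhibitor Arf, and Cdkn2b, the gene of p15, were listed at 0 in all 8 libraries. They are neighbours on chromosome 4 of GRCm38, from 89274471 to 89294653 and from 89306299 to 89311039. The annotated genes next to them were at 0 as well. A run of 11 genes, 3 of them protein-coding, was listed at 0 in all 8 libraries from 89137122 to 89463487, a stretch of 326.4 kb. The third protein-coding gene is Mtap, the methylthioadenosine phosphorylase gene of methionine salvage, which most tissues express. Ahead of the run, 8.9 kb before Mtap, the noncoding gene Gm12602 stood at 10.9 to 12.9 FPKM. Beyond the run, Dmrta1 was at 0 in every library except HA 4 (0.0091 FPKM), and the next gene with a mean of at least 1 FPKM was the pseudogene Gm12669, 2340 kb away (3.84 to 5.52 FPKM). Of 8456 runs of 0, 360 held at least 11 genes, counted whether or not any of them was protein-coding. In all, 27134 of the 55335 identifiers were at 0 in every library, so this count says nothing particular about Mtap. A 0 in this table does not tell a gene without transcripts from a failed estimate or from a stretch of DNA that the cells used here lack. None of these was tested, so the genes are described only as listed at 0.

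**Figure D2:**
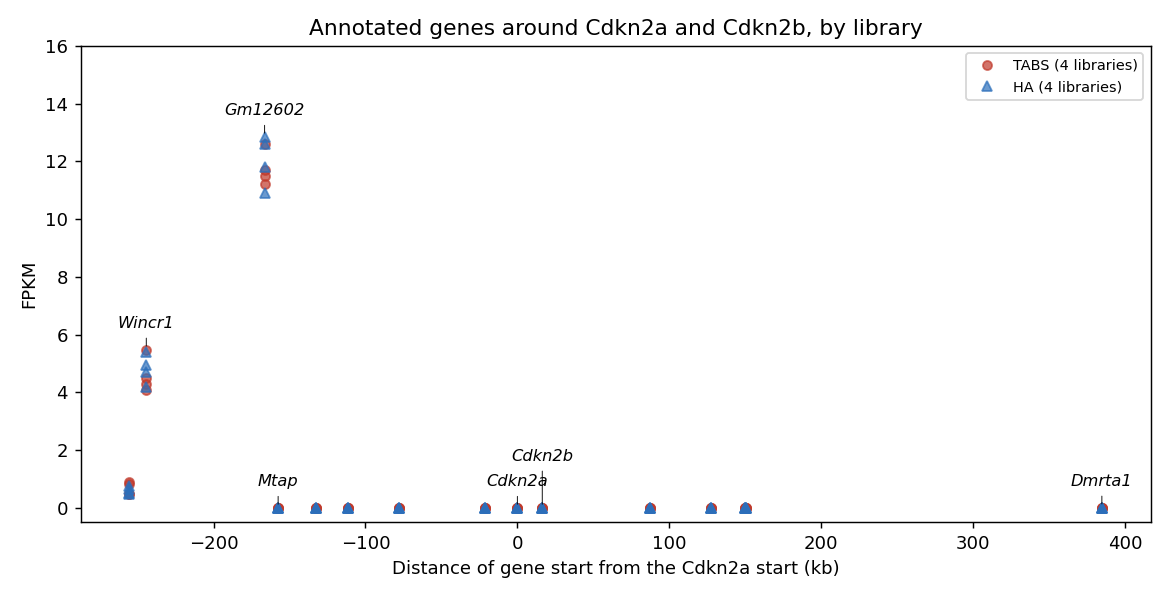
FPKM of the annotated genes around Cdkn2a and Cdkn2b in each library, against the distance of each gene's start from that of Cdkn2a in kb. Gm12602 lies at 10.9 to 12.9 FPKM in all 8 libraries, and the 11 genes from Mtap onward are at 0 in both groups.

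Of the 5 classes, arrest genes held the most genes whose groups did not overlap. Among the 11, all tested, 1 fell, 0 rose and 10 did not pass, and 2.90% of all tested genes fell. The median difference was -0.07, and it was -0.026 without TABS 1, -0.029 without TABS 2, -0.033 after rescaling to TPM and -0.037 when GC content and length were corrected for. In 5 of them the 4 TABS libraries lay all above or all below the 4 HA libraries. Over the 34 tested genes 8 were separated in this way (23.5%), 5 with TABS above and 3 below, against 18.0% of all tested genes, 10.8% above and 7.15% below.

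Plk2 stood at 11.6, 11.95, 11.1 and 11.8 FPKM in TABS and 12.7, 13.6, 13.6 and 14.2 in HA. Every TABS library lay below every HA library, and the difference was -0.20 ± 0.04 (log2, SE, n = 4 per group, limma adjusted p = 0.0293). The call on Plk2 (chromosome 13, 110395046 to 110400844) did not survive leaving out any 1 library other than HA 1 (adjusted p at most 0.0855) or rescaling to TPM (0.0564). Its relative Plk3 differed the other way in value, at 4.71, 4.48, 5.40 and 5.15 FPKM in TABS and 4.07, 3.97, 4.41 and 4.602 in HA (0.17, adjusted p = 0.138), with TABS 2 inside the HA range.

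Ccng1 and Ccng2 encode cyclins G1 and G2, of which Ccng1 is a classic p53 target. Ccng1 stood at 65.7, 66.4, 57.6 and 62.7 FPKM in TABS and 67.2, 70.3, 70.0 and 79.6 in HA. TABS lay below HA throughout, by 0.18 ± 0.06 on the log2 scale, but the gene did not pass (adjusted p = 0.124). Ccng2 stood at 6.72, 7.38, 7.20 and 6.69 FPKM in TABS and 5.30, 6.26, 6.11 and 6.60 in HA. TABS lay above HA throughout (0.18 ± 0.06, adjusted p = 0.123), and Ccng2 passed only when GC content and transcript length were corrected for (0.24, adjusted p = 0.021).

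Gadd45a, a stress sensor gene that p53 can induce, had the largest value of these genes, 0.34 ± 0.11 (interval 0.10 to 0.58, adjusted p = 0.0889). It stood at 9.09, 11.2, 9.09 and 7.86 FPKM in TABS and 6.07, 6.97, 7.36 and 8.18 in HA, so TABS 4 lay below HA 4. Exons of Gadd45a share 337 bases (19.1%) with an opposite-strand gene, E230016M11Rik, whose reads cannot be told apart since the strand setting is unknown. The same holds for opposite-strand exon overlaps in Cdkn1a (7.68% of exonic bases), Cdkn1c (30.7%), Plk3 (3.32%), Ei24 (6.66%), Ddb2 (23.8%), Rrm2b (8.04%) and Tigar (3.34%). Bax shares 12.2% with a gene on its own strand, whose reads could not be told apart by strand at all, and no exon overlap was found for Xpc or Plk2. Its relatives Gadd45b (20.5 ± 1.87 FPKM on TABS, 20.9 ± 1.22 on HA, SD, n = 4) and Gadd45g (19.0 ± 1.79 and 20.6 ± 0.92) were more abundant and overlapped between groups.

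Trp53inp1, a p53 target that promotes arrest and cell death, stood at 12.95, 13.6, 10.99 and 12.002 FPKM in TABS and 13.9, 13.8, 15.03 and 17.4 in HA. All TABS libraries lay below all HA libraries, HA 4 being the highest (-0.26 ± 0.08, adjusted p = 0.101). Zmat3, an RNA-binding p53 target, stood at 12.3, 12.8, 12.7 and 12.2 FPKM in TABS and 10.6, 11.7, 11.2 and 11.3 in HA. TABS lay above HA throughout (0.15 ± 0.04, adjusted p = 0.0642), and Zmat3 passed only after rescaling to TPM (0.20, adjusted p = 0.0314). The antiproliferative genes Btg1 (49.1 and 51.7 FPKM in TABS and HA) and Btg2 (6.31 and 6.67) differed by -0.07 each and overlapped.

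**Figure D3:**
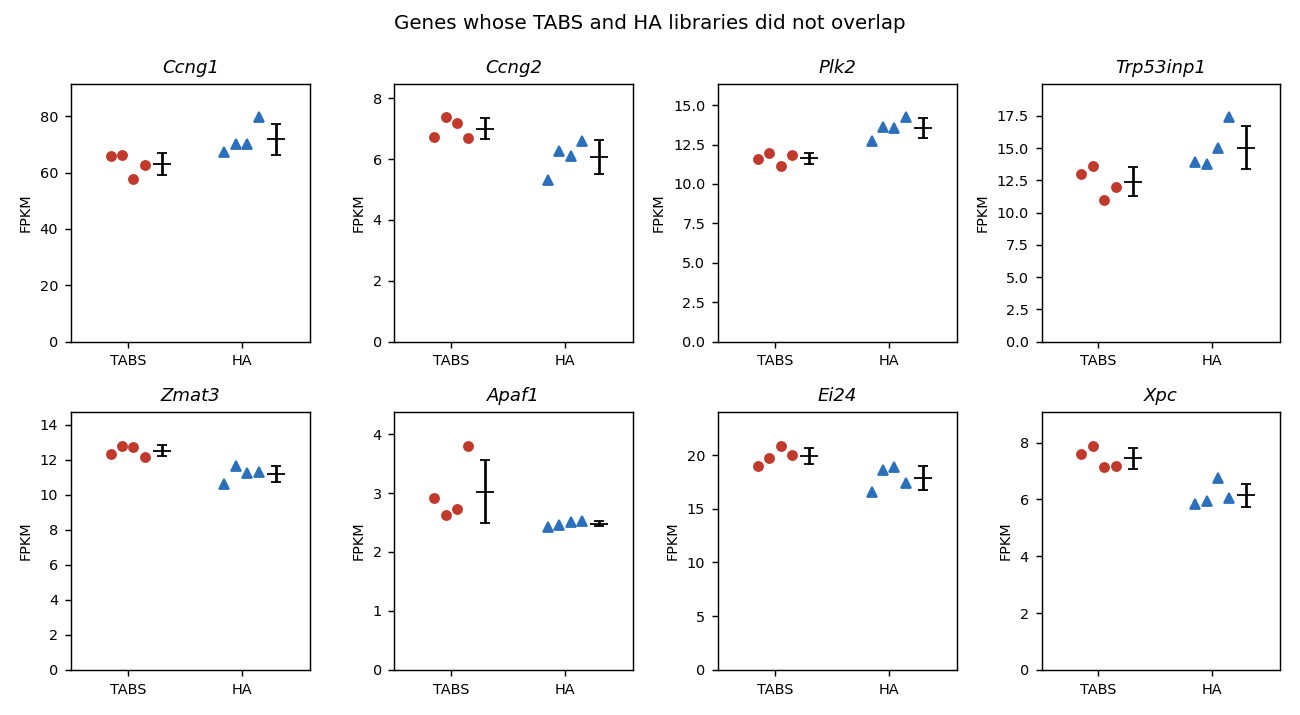
FPKM of the 8 genes whose TABS (circles) and HA (triangles) libraries did not overlap, 4 libraries a group, with the mean and SD in black. Ccng1, Plk2 and Trp53inp1 are lower on TABS in value and Ccng2, Zmat3, Apaf1, Ei24 and Xpc higher, and of the 8 Plk2 and Xpc passed the test.

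The log2 ratio of related genes within each library was computed for 9 pairs. They were chosen after the values of these genes were seen, so the ratios are a description. Ccng1 relative to Ccng2 stood at 3.00 ± 0.12 in TABS and 3.37 ± 0.07 in HA (SD, n = 4), which restates the values of both genes above. Plk2 relative to Plk3 stood at 1.09 ± 0.13 and 1.47 ± 0.06, and Gadd45a relative to Gadd45g at -0.96 ± 0.30 and -1.41 ± 0.17. In these 3 pairs the groups did not overlap. An exact permutation test over 70 assignments of the libraries gave each of them p = 0.0286, and 0.0857 after adjustment over the 9 pairs. No pair passed, and a test of pairs chosen after their values were seen cannot decide whether a ratio differs. Of the 6 genes in these 3 pairs, Plk2 alone passed the limma test.

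None of the apoptosis genes passed, which among so few genes does not set the class apart from the 7.38% of all tested genes. Of the 12, 10 were tested, with a median difference of 0.03 and values from -0.02 to 0.20. Phlda3, a repressor of Akt signalling, was the most abundant of all 39 genes, at 202.4 ± 6.001 FPKM on TABS and 203.3 ± 13.9 on HA (SD, n = 4), 190th of all tested genes. Its difference was -0.00 (interval -0.13 to 0.12). Bax, which permeabilises the mitochondrial outer membrane, varied within the groups, from 56.8 to 76.5 FPKM in TABS and from 56.8 to 76.7 in HA, with TABS 3 and HA 1 highest (0.05, interval -0.20 to 0.31). The BH3-only gene Bbc3, which encodes PUMA, stood at 9.27 ± 0.50 and 8.85 ± 0.68 FPKM, whereas Pmaip1, which encodes NOXA, was listed at 0 in every library. Perp, a desmosome gene, stayed at or below 0.052 FPKM.

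Apaf1, the scaffold of the apoptosome, stood at 2.92, 2.62, 2.74 and 3.81 FPKM in TABS and 2.43, 2.46, 2.51 and 2.53 in HA. The HA libraries lay close together and all TABS libraries lay above them, TABS 4 by the most (0.20 ± 0.08, adjusted p = 0.186). Ei24, an endoplasmic reticulum protein gene induced by p53, stood at 19.0, 19.7, 20.9 and 20.01 FPKM in TABS and 16.5, 18.6, 18.9 and 17.4 in HA. The groups were separated only narrowly, TABS 1 lying just above HA 3 (0.15 ± 0.05, adjusted p = 0.117). The death receptor genes Fas (3.64 and 3.63 FPKM in TABS and HA) and Tnfrsf10b (9.85 and 9.59), the nuclease gene Aen (9.72 and 9.83), Pidd1 (1.49 and 1.46) and the receptor gene Eda2r (2.19 and 2.24) overlapped between groups, with differences from -0.02 to 0.04.

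Among genes of repair and metabolism 1 of 6 rose and none fell (median difference -0.04), and 4.49% of all tested genes rose. A single call among 6 genes is too few to set the class apart from that background. Xpc stood at 7.61, 7.89, 7.14 and 7.17 FPKM in TABS and 5.83, 5.93, 6.74 and 6.05 in HA. All TABS libraries lay above all HA libraries, HA 3 being nearest to them, and the difference was 0.24 ± 0.05 (limma adjusted p = 0.0293). The call on Xpc (chromosome 6, 91489305 to 91515888) did not survive leaving out any 1 library other than HA 3 (adjusted p at most 0.0803). It was also lost when genes of low FPKM were kept (0.0638) and when GC content and length were corrected for (0.19, limma adjusted p = 0.0677).

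The other repair genes gave no such value. Ddb2, which recognises ultraviolet damage in the same repair pathway as Xpc, averaged 2.03 FPKM (SD 0.118) on TABS and 2.16 FPKM (SD 0.158) on HA over 4 libraries each (difference -0.06). Polk, a translesion polymerase gene, stood at 2.02, 2.46, 2.03 and 2.03 FPKM in TABS and 2.32, 2.57, 2.53 and 2.77 in HA, with only TABS 2 inside the HA range (-0.18 ± 0.06, adjusted p = 0.119). Rrm2b, the p53-inducible ribonucleotide reductase subunit gene, stood at 1.42 ± 0.13 and 1.69 ± 0.16 FPKM (-0.15, adjusted p = 0.170). Sesn1, an inhibitor of mTORC1 signalling under stress, was similar in level to Cdkn1a, with 93.8, 97.5, 94.1 and 85.0 FPKM in TABS and 72.1, 81.0, 85.2 and 88.2 in HA (0.18 ± 0.07, adjusted p = 0.146). TABS 4 lay inside the HA range. Tigar, a fructose bisphosphatase gene, stood at 2.65 ± 0.16 and 2.71 ± 0.10 FPKM.

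**Figure D4:**
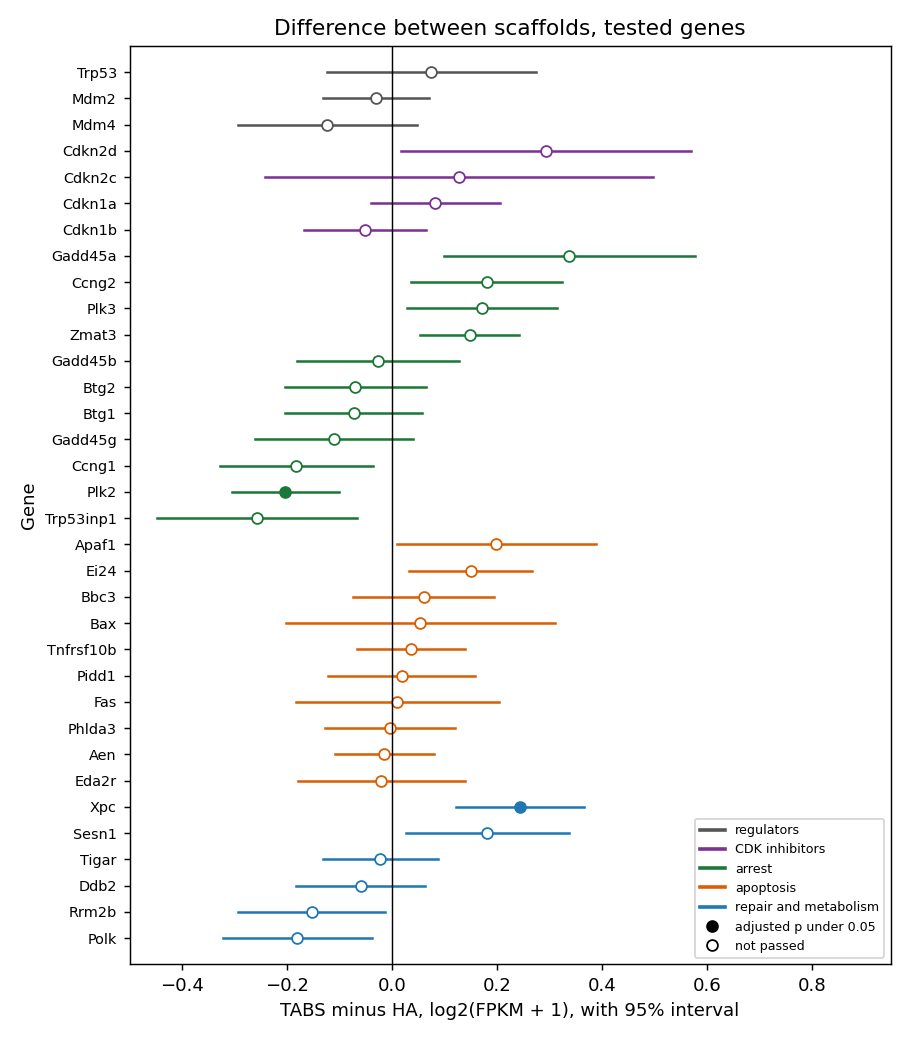
Difference between TABS and HA on the log2(FPKM + 1) scale with its 95% interval for the 34 tested genes, ordered within their class, with filled points for adjusted p under 0.05. Plk2 at -0.20 and Xpc at 0.24 are filled, and 17 values lie above 0 and 17 below.

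Other genes of the pathway, taken from 6 further lists, held a larger change than any of the 39. Of 69 listed genes 63 were tested, and 2 rose and 2 fell, which is 6.35% and below the 7.38% of all tested genes. Among 18 other p53 targets (16 tested), Steap3, an endosomal ferrireductase gene, rose and Fdxr, the mitochondrial ferredoxin reductase gene, fell. Steap3 stood at 37.4, 34.7, 34.9 and 32.3 FPKM in TABS and 20.02, 20.1, 21.6 and 19.9 in HA, far apart (0.74 ± 0.05, adjusted p = 0.000319), and passed in all 20 alternatives. Fdxr stood at 21.8, 20.5, 22.4 and 22.5 FPKM in TABS and 28.7, 26.4, 24.1 and 25.4 in HA. No TABS library reached the lowest HA library, and the difference was -0.25 ± 0.06 (adjusted p = 0.0332). Fdxr no longer passed in 8 of the 20 alternatives, among them each TABS library left out, HA 2 or HA 4 left out, and genes of low FPKM kept (adjusted p at most 0.110).

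Of the p53 family, Trp63 was expressed and fell, while Trp73 stayed near 0. Trp63, which encodes p63, a transcription factor best known from stratified epithelia, stood at 8.15, 8.13, 8.74 and 8.55 FPKM in TABS and 10.8, 10.7, 11.3 and 11.1 in HA. The groups were tight and well apart (-0.35 ± 0.04, adjusted p = 0.00185), and the call on Trp63 held in all 20 alternatives (adjusted p up to 0.043). Of 11 upstream kinases and p53 modifiers (9 tested), the acetyltransferase gene Ep300 rose. Ep300 stood at 6.96, 6.99, 6.96 and 7.06 FPKM in TABS and 5.89, 6.01, 6.11 and 6.19 in HA, both groups being tight (0.18 ± 0.04, adjusted p = 0.0203). That call was lost in 9 of 20 alternatives, among them GC and length corrected for, and any 1 library other than HA 1 or HA 4 left out (adjusted p at most 0.161).

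**Figure D5:**
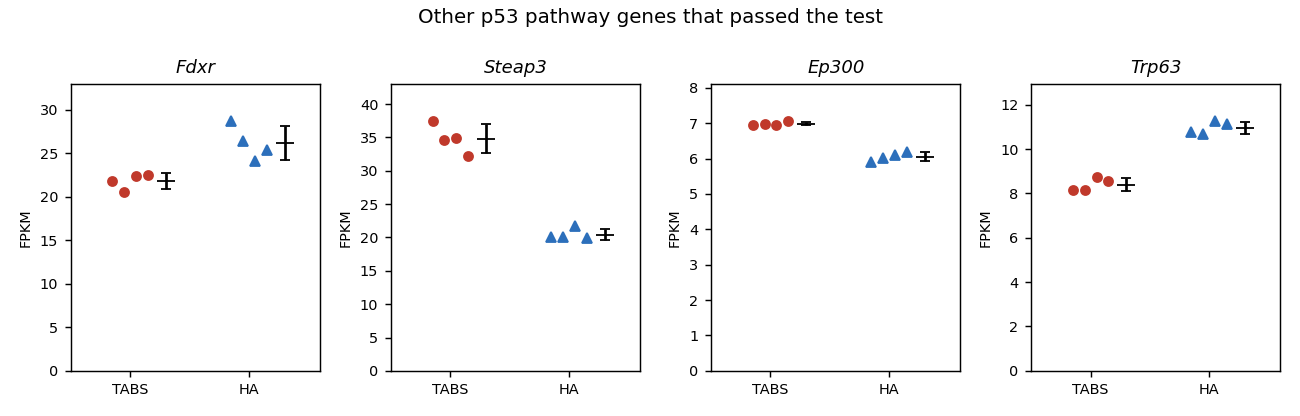
FPKM of the 4 other pathway genes that passed the test in the 4 TABS libraries (circles) and the 4 HA libraries (triangles), with the mean and SD in black. Steap3 stands at 32.3 to 37.4 on TABS against 19.9 to 21.6 on HA, and Trp63 at 8.13 to 8.74 against 10.7 to 11.3.

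Genes on which the CDK inhibitors act, and genes of dividing cells, did not pass the test on either side. None of 14 tested CDK, cyclin, pocket protein and E2F genes passed (limma, median difference -0.00, 3 at an unadjusted p under 0.05). None of 11 genes of dividing cells passed (median -0.02, none at an unadjusted p under 0.05), and their summed level was 144 to 159 FPKM in TABS and 144 to 160 in HA. None of 12 BCL2 family and caspase genes passed either (median 0.05, 3 at an unadjusted p under 0.05). Some genes of these lists varied widely within a group, so their differences are poorly bounded. Ccnd3 stood at 7.36, 16.8, 7.72 and 16.8 FPKM in TABS and 6.66 to 7.72 in HA (0.60, limma adjusted p = 0.187). Bcl2l1 ranged from 7.19 to 19.5 FPKM in TABS and 7.27 to 18.9 in HA, and Bak1 from 12.7 to 21.8 and 13.1 to 23.5. Over all tested genes 7.38% passed and 24.1% had an unadjusted p under 0.05. Lists this short cannot be set apart from the 7.38% by having no call. Gdf15, a secreted stress target of p53, stayed under 1 FPKM in every library (0.268 to 0.446 in TABS, 0.289 to 0.704 in HA) and was not tested.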

How the data were processed

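RNA of 8 MC3T3-E1 libraries was read as paired reads of 150 bases, per the labels' protocols. The deposited table holds 1 FPKM value per gene and library, made by the authors before deposit. The tools STAR, fastp and DESeq2 and the build GRCm38 are named, per the submitters' processing notes. The sources used here do not give versions, the role of each tool, the annotation or the strand setting. Columns were assigned by the library names in the labels, whose letters H (TABS) and L (HA) do not match the group names. No gene checks the scaffold labels.

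Symbols, coordinates, length and GC content came from GENCODE M21 (GRCm38), which held 55154 of 55335 identifiers. Genes with at least 1 FPKM in at least 4 libraries (11280) entered limma 3.58.1 (R 4.3.3) as log2(FPKM + 1), where 1 is the pseudocount. Variances were moderated along a trend with expression, tests were two-sided, and p-values were Benjamini-Hochberg adjusted over all genes tested. This scale understates changes of low genes. The fit was tested on simulated data and repeated under 20 alternatives of pseudocount, filter, scaling, variance model, replicate block, GC and length correction, and each library left out. No 2 libraries held identical values.

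Values in every library are given for genes that passed or whose groups did not overlap, for CDK inhibitors and for Trp53, Mdm2 and Mdm4. Values for Plk3, Gadd45a, Polk and Sesn1 were added after they were seen. Of further lists, up to 4 genes each that passed are named. Members and lists were chosen with earlier results of these data known.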

Additional observations from a re-analysis of the deposited data

Results flagged for a closer look

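In groups of 4 libraries, 5 of 71 groups with any spread held a library whose gap to the nearest other exceeded 0.829 of the group's range, and chance gives about 1 in 20. Btg1 was low in TABS 1 (44.4 FPKM, the others 50.4 to 51.1) and in HA 1 (47.8, the others 52.6 to 53.2). Polk was high in TABS 2 (2.46 FPKM, the others 2.02 to 2.03), and Rrm2b was low in TABS 3 (1.23 FPKM, the others 1.48 to 1.496). Cdkn1c was above 0 in HA 4 alone (0.0188 FPKM).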

How the results depend on the processing

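Of 670 fits of single members under 20 alternatives, 615 kept direction and side of the threshold, 21 lost a call, 3 gained one and 31 changed sign. The 12 genes that changed sign had differences of at most 0.127 in size. The number of higher members, 1 in the main fit (Xpc), became 0 with no filter on low FPKM and 2 after rescaling to TPM (Xpc and Zmat3). It was 0 to 1 with 1 library left out, the 1 being Cdkn2d without TABS 1 and Xpc without HA 3. With the GC and length correction the 1 higher member was Ccng2 and no longer Xpc. The 1 lower member became 0 after rescaling to TPM and 0 to 1 with 1 library left out. Over the whole table, 833 calls became 542 with no filter and 415 to 718 with 1 library left out. The share of calls that were higher was 60.7%, 79.3% after rescaling to TPM, 51.3% with the GC and length correction and 49.8% with that correction and the replicate block.

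A fit with a replicate block left 230 genes of the table and 0 members in either direction (adjusted p = 0.104 for Plk2 and 0.119 for Xpc). With the block and the GC and length correction, 305 genes passed and again 0 members (0.0526 and 0.186). Deviations of same-numbered libraries correlated at 0.10, 0.05, -0.10 and -0.06, and not every library correlated best with its own number, so the numbers were not taken to pair the libraries.

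The median difference of the members moved to 0.045 with a filter of 5 FPKM and to 0.044 after rescaling to TPM, which moved the median of all tested genes to 0.0449. With the filter of 5 FPKM, that of the regulators was 0.023 and that of repair and metabolism 0.21 (2 genes each, fewer genes being tested). After rescaling to TPM that of apoptosis genes was 0.069. With 1 library left out it ranged from 0.044 to 0.16 for the CDK inhibitors, -0.085 to -0.026 for arrest, -0.049 to -0.0015 for regulators, 0.014 to 0.045 for apoptosis and -0.061 to -0.022 for repair and metabolism.

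Signs changed as follows. After rescaling to TPM the difference was 0.024 for Aen, 0.010 for Eda2r, 0.013 for Gadd45b, 0.0088 for Mdm2, 0.037 for Phlda3, 0.0092 for Tigar and 0.0051 for the ratio of Btg1 to Btg2. All 6 genes stayed below the median of all genes under that scaling (0.0449), so their signs changed with the shift of the whole table. With the GC and length correction, alone or with the replicate block, it was 0.00073 for Cdkn1b, 0.064 for Eda2r, -0.046 for Pidd1 and 0.078 for that ratio, which was also 0.0056 and 0.0016 with pseudocounts of 0.1 and 0.5. Phlda3 was 0.061 after quantile normalization. With 1 library left out, differences ranged from -0.037 to 0.0019 for Aen, -0.025 to 0.15 for Bax, -0.0062 to 0.27 for Cdkn2c, -0.070 to 0.025 for Eda2r, -0.067 to 0.060 for Fas, -0.074 to 0.014 for Gadd45b, -0.035 to 0.033 for Phlda3, -0.0089 to 0.056 for Pidd1, -0.048 to 0.0026 for Tigar and -0.0069 to 0.12 for Trp53. The ratio of Btg1 to Btg2 ranged from -0.064 to 0.056 and that of Cdkn2c to Cdkn2d from -0.29 to 0.0062. Depth is unknown, so no counting error can be given.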
